A study of Mus musculus with 8 samples.

Results

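The 436 widest stretches of Ezh2 binding in EML_C1 cells, each at least 3 kb long, are described here. They were found by merging the peak lists of the 2 Ezh2 ChIP-seq libraries wherever peaks touched or overlapped, keeping the 65316 merged regions to which both replicates contributed, and taking those at least 3000 bp wide. The 436 regions were 0.668% of these 65316 and held 1829005 of their 39050029 bp, which is 4.68%. The regions were therefore chosen by their Ezh2 width, and Ezh2 widths, peak numbers and fold enrichments are given below as a description only.

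The study mapped the Polycomb protein Ezh2, the histone mark H3K27me3 and the transcription factor Runx1 by chromatin immunoprecipitation and sequencing, with 2 replicate libraries for each of the 3 antibodies and 2 input libraries. One input served Ezh2 and Runx1 and the other served H3K27me3. All 8 libraries came from EML_C1 cells with no treatment named, an SCF-dependent mouse blood progenitor line immortalised with a dominant-negative retinoic acid receptor, labelled as strain C57BL/6 and grown in medium with mouse SCF. Ezh2 and Runx1 chromatin was fixed with DSG and formaldehyde, whereas H3K27me3 chromatin was fixed with formaldehyde alone. No label says that the replicates were separate cultures, so their spread may be technical. Peak lists hold no expression values, so the cell type could not be checked against markers and no level of any gene is known here. With 2 libraries in a group, an exact two-sided permutation test cannot give a p below 0.333, so differences are set against the spread of the replicates and no test was run.

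Ezh2 is the catalytic subunit of Polycomb repressive complex 2, which methylates lysine 27 of histone H3. The complex is known to concentrate at CpG-rich promoters of silent developmental genes, and a further subunit that binds the mark helps it spread along chromatin. Runx1 is a DNA-binding factor needed to form blood stem cells, and it recognises the sequence TGTGGT and its variant TGCGGT.

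The promoters of 5 genes show DNA from inside such regions. Tyro3, L3mbtl3 and Rabgap1l were among the 5 regions with the highest Ezh2 fold, Fam169a and Rabgap1l were among the 5 with the highest H3K27me3 fold, and Asap3 was among the 5 with the highest Runx1 fold. Each sequence runs 5′ to 3′ on the gene's strand, from 250 bases before to 50 after the start, in RefSeq's GRCm38.p6 (mm10), with every CG dinucleotide in capitals. Tyro3 lies on the plus strand at chr2:119799264-119799563, L3mbtl3 on the minus strand at chr10:26374023-26374322, and Rabgap1l on the minus strand at chr1:160792889-160793188. Fam169a lies on the plus strand at chr13:97071393-97071692 and Asap3 on the plus strand at chr4:136206115-136206414.
Tyro3: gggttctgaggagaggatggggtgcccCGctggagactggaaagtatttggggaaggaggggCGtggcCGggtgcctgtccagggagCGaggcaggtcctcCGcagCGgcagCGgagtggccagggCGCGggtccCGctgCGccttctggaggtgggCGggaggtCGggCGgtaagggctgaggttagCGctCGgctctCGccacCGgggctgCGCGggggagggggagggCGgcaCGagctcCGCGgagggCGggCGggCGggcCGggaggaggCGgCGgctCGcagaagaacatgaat
L3mbtl3: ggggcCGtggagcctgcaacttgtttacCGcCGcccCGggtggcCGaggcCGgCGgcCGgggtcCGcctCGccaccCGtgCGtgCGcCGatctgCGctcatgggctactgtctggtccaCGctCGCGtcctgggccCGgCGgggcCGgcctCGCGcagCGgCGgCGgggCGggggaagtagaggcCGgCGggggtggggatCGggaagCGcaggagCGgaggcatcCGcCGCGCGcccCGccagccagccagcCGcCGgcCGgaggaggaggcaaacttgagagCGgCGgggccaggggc
Rabgap1l: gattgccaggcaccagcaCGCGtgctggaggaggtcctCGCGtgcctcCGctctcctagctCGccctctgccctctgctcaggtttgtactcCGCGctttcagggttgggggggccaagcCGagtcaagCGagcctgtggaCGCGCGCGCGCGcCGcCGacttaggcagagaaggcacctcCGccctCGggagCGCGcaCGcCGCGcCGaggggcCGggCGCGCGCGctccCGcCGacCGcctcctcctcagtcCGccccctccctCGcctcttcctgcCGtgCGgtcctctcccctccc
Fam169a: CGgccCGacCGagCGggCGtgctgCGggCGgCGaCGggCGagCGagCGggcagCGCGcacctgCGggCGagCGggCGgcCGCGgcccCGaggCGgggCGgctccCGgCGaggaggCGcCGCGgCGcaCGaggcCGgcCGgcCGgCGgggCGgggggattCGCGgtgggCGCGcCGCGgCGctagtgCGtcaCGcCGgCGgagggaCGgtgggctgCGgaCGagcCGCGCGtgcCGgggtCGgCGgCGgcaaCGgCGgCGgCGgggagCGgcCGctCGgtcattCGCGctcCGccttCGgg
Asap3: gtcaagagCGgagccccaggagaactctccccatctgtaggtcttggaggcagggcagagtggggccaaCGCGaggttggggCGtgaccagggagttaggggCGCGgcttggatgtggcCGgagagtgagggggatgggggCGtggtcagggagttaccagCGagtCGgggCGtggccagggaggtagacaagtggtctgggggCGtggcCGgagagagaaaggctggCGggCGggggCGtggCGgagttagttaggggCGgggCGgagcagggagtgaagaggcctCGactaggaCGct
These windows held 31 CG in Tyro3, 42 in L3mbtl3, 38 in Rabgap1l, 67 in Fam169a and 21 in Asap3, against a median of 13 over all 21263 promoters of the table. TGTGGT was in none of the 5 windows, and TGCGGT was in the window of Rabgap1l alone, near its 3′ end. A Runx1 peak of each replicate touched the windows of Asap3 and Tyro3, and none touched those of L3mbtl3, Rabgap1l and Fam169a.

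MicroRNA genes with shared seeds also lay in the wide regions. Of 1228 microRNA genes in the annotation, 5 lay in a wide region, namely Mir196a-1, Mir196a-2, Mir212, Mir132 and Mir1903. Mir196a-1 lay near Hoxb9 and Mir196a-2 beside Hoxc10, and both give the mature miR-196a-5p, which is known to target Hox messages. Mir212 and Mir132 lay side by side in the region of Hic1, and their 3p arms share a seed. The mature sequences from RefSeq are printed with the seed, bases 2 to 8, in capitals.
miR-196a-5p: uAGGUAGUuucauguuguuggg
miR-212-3p: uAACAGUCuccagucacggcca
miR-132-3p: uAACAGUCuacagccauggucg
Mir196a-1 is at chr11:96265164-96265265, Mir196a-2 at chr15:102973350-102973434, Mir212 at chr11:75173388-75173478 and Mir132 at chr11:75173682-75173747. The 9113 bp region with Mir196a-1 had Ezh2 folds of 7.76 and 8.60 in replicates 1 and 2, and the 6041 bp region with Mir196a-2 had 9.66 and 7.05. Neither held a Runx1 peak in either replicate. The 3810 bp Hic1 region had Ezh2 folds of 6.24 and 7.54 and Runx1 folds of 12.8 and 11.3, so the microRNA pair there lay in a region bound by both proteins.

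Most of the wide regions were a little over the threshold, and the HoxC cluster held the longest. Widths ran from 3006 to 30618 bp with a median of 3721.5 bp, and the quartiles were 3330.5 and 4525 bp. At least 5000 bp were reached by 73 regions, 8000 bp by 11 and 10000 bp by 3. The 64880 Ezh2 regions under 3 kb had a median width of 467 bp. Just inside the threshold were regions near Spocd1 at 3006 bp, in Vax2 at 3006 bp and at Arid3c at 3007 bp. Just outside were regions at St14 and in Hoxc4, both at 2998 bp, and in Gata4 at 2999 bp.

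Merging built many of the regions from several peaks. A wide region held a median of 2 peaks in each replicate and at most 9 in each, and the peaks covered a median of 95.4% of its length in replicate 1 and 92.3% in replicate 2. A single peak of at least 3 kb was present in both replicates in 146 regions, in 1 replicate only in 163, and in neither in 127. Peaks of each replicate covered at least 3000 bp in 297 regions. The number of regions thus rests on the merging: replicate 2 alone gave 205 regions of 3 kb or more and replicate 1 alone gave 256.

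The highest Ezh2 fold over input in a wide region, as the authors' peak caller gave it, had a median of 8.21 in replicate 1 and 6.30 in replicate 2. Over the regions under 3 kb the medians were 2.63 and 2.58. The 5 highest folds began with Ptpru, a receptor tyrosine phosphatase, at 31.2 and 23.9, and Tyro3, a receptor kinase of the TAM family, at 28.8 and 20.4. Next came L3mbtl3, a methyl-lysine binding protein of the Polycomb group, with 27.8 and 20.7. Rabgap1l, a GTPase-activating protein for Rab, had 26.9 and 20.5. The last lay 20644 bp from Dmbx1, a homeobox gene of the brain, with 23.8 and 22.4. Replicate 1 gave the higher value in 357 of the 436 regions. The replicates ordered the regions alike, with a Spearman correlation of 0.894 across the 436 regions, which share the same input library.

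H3K27me3 lay over nearly every wide region and along nearly all of its length. A peak of the mark touched 435 of the 436 regions in both replicates (99.8%), against 80.2% of all 65316 Ezh2 regions. A wider region meets more peaks by its size alone, so measures that do not grow with width are given next. The midpoint base lay in the mark in both replicates in 422 wide regions (96.8%), against 70.7% of all Ezh2 regions. The mark covered at least 50% of the region in both replicates in 427 wide regions (97.9%), against 69.8% of all.

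Summed over bases, the mark covered 96.8% of the length of the wide regions in replicate 1 and 90.5% in replicate 2, a mean of 93.7 ± 4.50% (SD, n = 2). The regions under 3 kb were covered over 89.6% and 73.5% of their length, a mean of 81.5 ± 11.4% (SD, n = 2). The sets did not overlap, though their means lay closer together than the replicates of the regions under 3 kb. The highest H3K27me3 fold in a region had a median of 3.03 and 2.57 over the wide regions, a mean of 2.80 ± 0.328 (SD, n = 2), against 2.40 and 2.22 over the regions under 3 kb, a mean of 2.31 ± 0.129 (SD, n = 2). All values of the wide set were above all values of the regions under 3 kb, and replicate 1 was the higher in both sets.

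A touching count was also made for the stronger peaks of the mark, and like the first it grows with width. Taking only mark peaks with a q-value of at most 0.01, 226 wide regions (51.8%) were touched in both replicates, against 2.98% of all Ezh2 regions. Replicate 2 set this count, because 412 wide regions (94.5%) were touched by such a peak in replicate 1 and 226 in replicate 2. Only 1.34% of the peaks of H3K27me3 replicate 2 reached that q-value, against 6.13% in replicate 1, and the part of this in the counts was not tested.

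**Figure D1:**
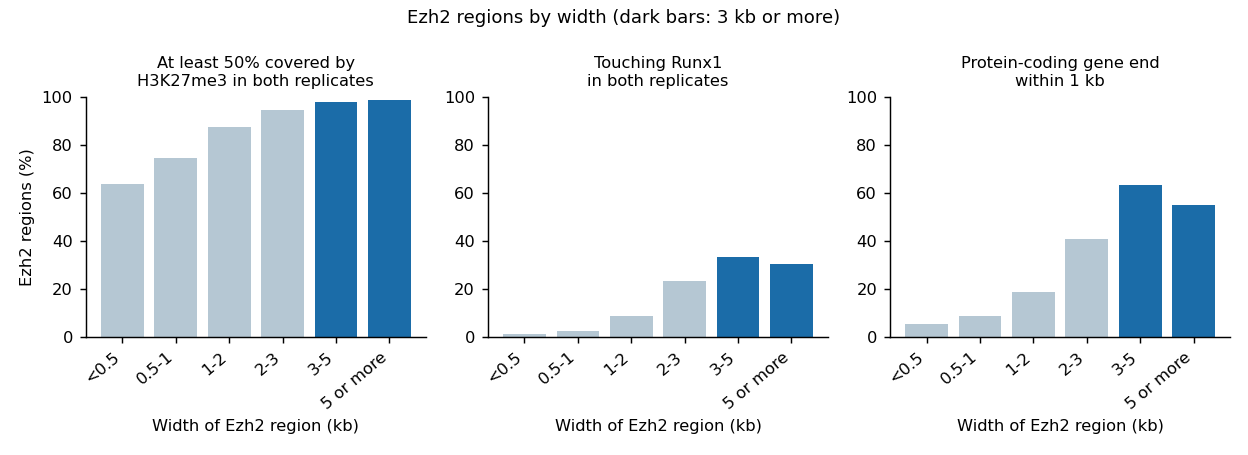
Ezh2 regions found in both replicates by width class on the horizontal axis, in kb, from narrow to wide. Bars give the percentage of each class that was at least 50% covered by H3K27me3 in both replicates (left), that touched Runx1 in both replicates (middle) and that had a protein-coding gene end within 1 kb (right). Dark bars are the regions of 3 kb or more, with 363 regions at 3 to 5 kb and 73 at 5 kb or more. The left share climbs to 98.6% in the widest class, while the other shares are highest at 3 to 5 kb.

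Cover by the mark climbed with width without a break at 3 kb. At least 50% of the region was covered in both replicates in 63.4% of regions under 500 bp, 74.5% at 500 bp to 1 kb, 87.3% at 1 to 2 kb, 94.3% at 2 to 3 kb, 97.8% at 3 to 5 kb and 98.6% at 5 kb or more. The wide regions continued the trend of the narrower classes.

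**Figure D2:**
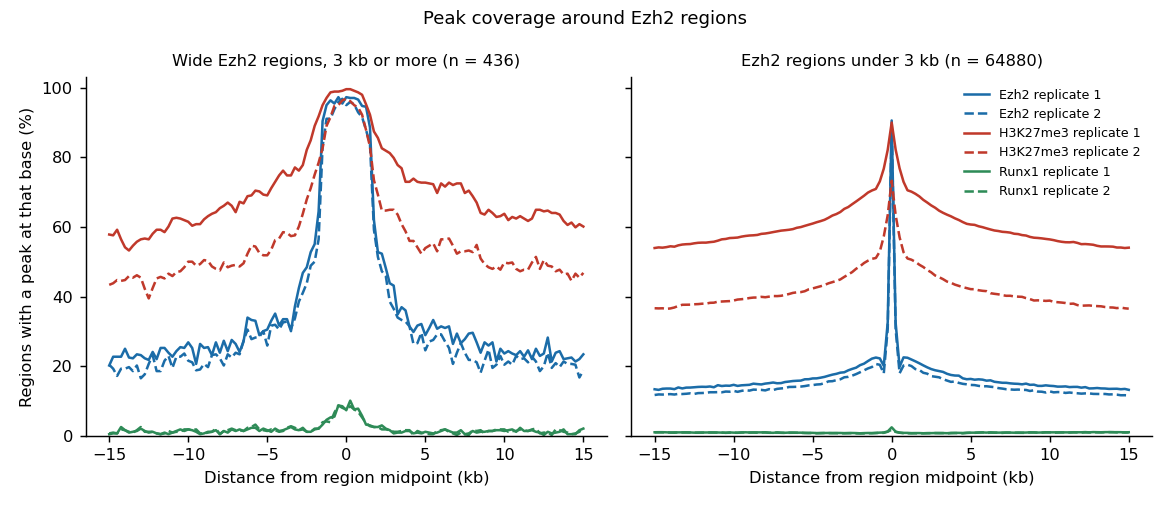
Percentage of regions with a peak at each distance from the region midpoint, in kb, for the 436 wide regions (left) and the 64880 regions under 3 kb (right). Solid lines are replicate 1 and dashed lines replicate 2, in blue for Ezh2, red for H3K27me3 and green for Runx1. At 10 kb to the right of the midpoint H3K27me3 replicate 1 still lies over 63.8% of the wide regions and 56.4% of the regions under 3 kb, while Runx1 replicate 1 is at 1.38% and 0.979%.

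Outside the edges of the regions, mark peaks were present more often than Ezh2 peaks, even 50 kb away. The mark lists hold broad peaks and the Ezh2 lists narrow peaks, and the part of this in the difference was not tested. The share of the whole genome under mark peaks is not given here, so no background stands beside these values. The merged mark regions at the wide Ezh2 regions had a median width of 13800 bp and ran from 2069 to 85216 bp. A long mark region is more readily met by a wide Ezh2 region, so nothing is read from this width. At 5 kb outside the edges, the mark was present at 70.1% of positions in replicate 1 and 50.3% in replicate 2 around wide regions, against 60.4% and 41.9% around regions under 3 kb. At 50 kb outside, it was present at 40.6% and 30.5% around wide regions and at 42.8% and 28.6% around regions under 3 kb. The surroundings differed near the region and were much the same far from it. A wide region lay wholly inside a single mark region in 330 cases (75.7%), against 75.9% of all Ezh2 regions, so the shares were alike.

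The strongest mark was not in the longest regions. Among the 5 highest H3K27me3 folds were those at Hivep2, a zinc finger factor gene, with 7.56 and 4.46, at Zswim5 with 6.81 and 3.98, at Fam169a with 5.44 and 3.42, and at Rabgap1l with 4.89 and 3.85. The mark regions at them were 2204 to 6989 bp wide, and nothing is read from these widths either. A fold belongs to a whole mark peak, so a long peak gives all the Ezh2 regions under it the same value. The 30618 bp region of Hoxc9, Hoxc8 and Hoxc6 and the regions of Hoxc10 thus all carried 3.43 and 2.78. Across the wide regions the Ezh2 and H3K27me3 folds had a Spearman correlation of 0.511 in replicate 1 and 0.485 in replicate 2, with width and the mark's length-weighted fold at 0.190 and 0.145. These regions share libraries and many lie on shared mark peaks.

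**Figure D3:**
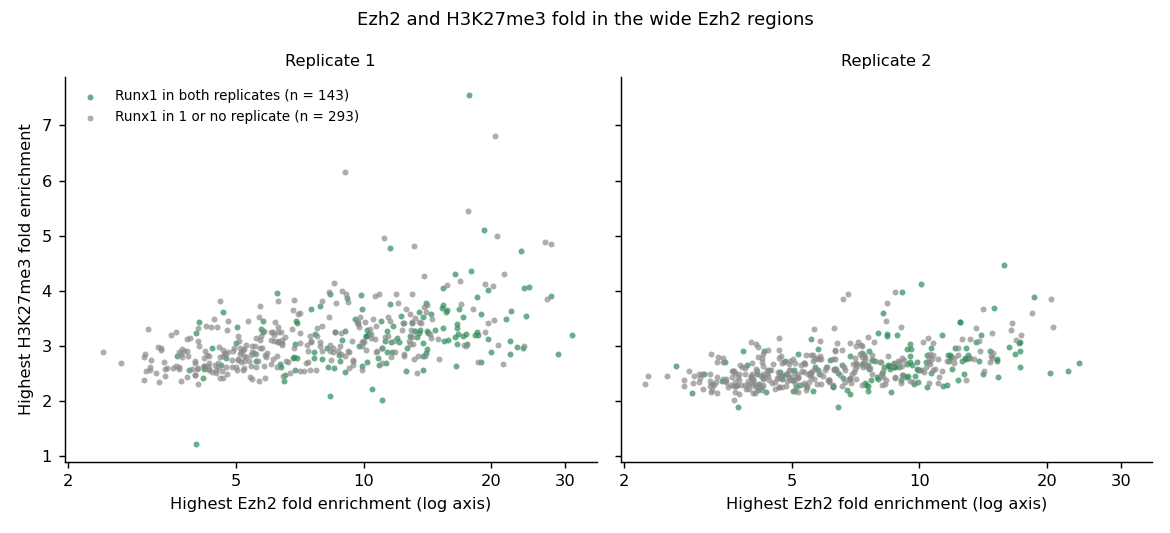
Highest Ezh2 fold (log axis) against highest H3K27me3 fold (linear axis) in each wide region, for replicate 1 (left) and replicate 2 (right, without the 1 region that has no mark peak there). Green points are the 143 regions with Runx1 in both replicates and grey points the other 293. Hivep2 stands highest at 7.56 in replicate 1 and 4.46 in replicate 2, and green points lie mostly towards the higher Ezh2 folds.

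In 1 wide region the mark was not found in both replicates. It lies at chr17:39843026-39848816, 5791 bp wide, 101703 bp from Esp38, the nearest protein-coding gene, and overlaps Rn18s-rs5, annotated as a pseudogene related to 18S ribosomal RNA, and the long non-coding RNA gene AY036118. Its H3K27me3 cover was 56.2% with a fold of 1.21 in replicate 1 and none in replicate 2, while Ezh2 had 4.01 and 2.46 and Runx1 had 3.06 and 2.74. Ezh2, the mark and Runx1 thus all had peaks there in at least 1 replicate, at folds below the medians of the set. Ribosomal RNA genes occur in many copies, and whether these peaks come from copies elsewhere was not tested. Leaving it out, 435 of 435 regions carried the mark in both replicates. The mark covered under 50% in a replicate in 9 regions, of which 7 held Runx1 in both replicates. The lowest of those with a mark peak in each replicate was in Bahcc1, named after its values were seen, with 77.9% covered in replicate 1 and 3.85% in replicate 2.

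Runx1 bound inside about 1 in 3 wide regions. A Runx1 peak of each replicate touched 143 of the 436 regions (32.8%), against 2.71% of all Ezh2 regions. Replicate 1 touched 164 and replicate 2 touched 166, with 21 regions touched in replicate 1 only, 23 in replicate 2 only and 249 in neither. With Runx1 peaks of q at most 0.01, 121 regions (27.8%) were touched in both replicates, against 2.18% of all Ezh2 regions. With Runx1 peaks of q at most 1e-05, 102 regions (23.4%) were touched in both replicates, against 1.78% of all Ezh2 regions.

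A longer region offers more room for a peak, so measures that do not grow with width follow. The midpoint base lay in Runx1 in both replicates in 24 wide regions (5.50%), against 1.24% of all Ezh2 regions. Runx1 peaks covered 5.33% and 5.09% of the length of the wide regions, a mean of 5.21 ± 0.167% (SD, n = 2), against 2.30% and 1.90% of the length of the regions under 3 kb, a mean of 2.10 ± 0.283% (SD, n = 2). Summits per kb were 0.113 and 0.115 in wide regions and 0.0681 and 0.0505 in regions under 3 kb. By cover and by summits the wide regions were higher in each replicate than all regions under 3 kb, and the sets did not overlap. The regions of 2 to 3 kb alone were higher still, with Runx1 over 5.78% and 5.46% of their length, 0.130 and 0.122 summits per kb and 6.16% of midpoints in both replicates. At 5 kb or more, cover was 4.31% and 3.84%. These measures thus did not mark off the wide regions from those just below 3 kb. By width class the share with Runx1 in both replicates was 1.25% under 500 bp, 2.41% at 500 bp to 1 kb, 8.53% at 1 to 2 kb, 23.1% at 2 to 3 kb, 33.3% at 3 to 5 kb and 30.1% at 5 kb or more. The share was no higher at 5 kb or more than at 3 to 5 kb.

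The 5 highest Runx1 folds did not fall on the regions highest in Ezh2. The highest were 42289 bp from Gm38821, at chr6:51177501-51180667, with 177 and 150.2, and at Nkd1, an inhibitor of Wnt signalling, with 137 and 129.5. Then came Asap3, a GTPase-activating protein for Arf, with 128 and 106, Rhpn2 with 116 and 98.6, and Pkp2, a desmosome protein, with 116 and 90.8. Their Ezh2 folds were 3.62 and 3.22 near Gm38821, 6.80 and 5.50 at Nkd1, 8.81 and 6.25 at Asap3, 6.85 and 5.06 at Rhpn2, and 8.49 and 7.44 at Pkp2. Of these, Pkp2 alone was above the Ezh2 medians of the wide regions, 8.21 and 6.30, in both replicates.

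Over the whole set the 143 regions with Runx1 in both replicates had a median Ezh2 fold of 11.6 and 8.54, against 6.17 and 5.33 in the 249 without it in either. Their H3K27me3 folds were 3.18 and 2.61, against 2.96 and 2.53. The mark covered a median of 100% and 92.0% of the regions with Runx1 and 100% and 100% of those without. Among regions under 3 kb the gap in cover was larger, with medians of 88.9% and 46.8% in the 1626 with Runx1 in both replicates and 100% and 94.7% in the 61395 without it. Ezh2 and Runx1 share an input library and a fixation, and the part of this in their overlap was not tested.

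Within the wide regions Runx1 sat towards the middle. Merged Runx1 regions found in both replicates numbered 170 in 141 wide regions, of which 118 held 1, 23 held more and none over 4. The region over Rn18s-rs5 held 4 of the 170. The centre lay inside the wide region for 167 of them, and 56 of these (33.5%) were nearer to an edge than to the midpoint, where an even spread would give 50%. The nearest Ezh2 summit was a median of 288 bp away in replicate 1 and 314 bp in replicate 2, distances that were not set against an even spread. A protein-coding gene end, taken as an outer bound of the gene's annotated span, lay within 1 kb of 93 of the 167 (55.7%). Starts inside a gene's span were not counted there. The mark lay over the Runx1 centre in both replicates in 130 of 167 (77.8%), against 659 of 1330 (49.5%) in Ezh2 regions under 3 kb and 3.35% of all 44026 Runx1 regions. By replicate the share at centres in wide regions was 91.0% and 77.8%. These shares were below the 96.8% and 90.5% of wide-region length that the mark covered.

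Wide Ezh2 regions lay mostly at the ends of genes. A protein-coding gene end, either the start or the 3′ end, lay inside or within 1 kb of 269 of the 436 (61.7%), against 8.32% of all Ezh2 regions. A further 85 (19.5%) lay inside a gene and 82 (18.8%) between genes. Ends here were the outer bounds of each gene's annotated span. A region at an inner start, such as that of Kcnip3, was thus counted as inside a gene. The counts of known starts below include such inner starts. By width class the share at a gene end was 5.30% under 500 bp, 8.61% at 500 bp to 1 kb, 18.5% at 1 to 2 kb, 40.7% at 2 to 3 kb, 63.1% at 3 to 5 kb and 54.8% at 5 kb or more. A longer region has more room to reach a gene end, and the part of width in these shares was not tested.

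The gene ends were starts far more often than 3′ ends. Starts were known for 17492 of the 21887 protein-coding genes, and of the 13 Hox genes at wide regions only Hoxc4, Hoxb8 and Hoxd12 had a known start in one, so the longest Hox regions add little to the counts of starts and promoters. Wide regions held the known start of 186 genes and the 3′ end of 19, of which 7 had both inside, and 179 regions (41.1%) held a start, against 2.52% of all Ezh2 regions. Starts also led in the regions under 3 kb, which held 1440 starts and 207 3′ ends. From the start, the region ran a median of 1669.5 bp upstream and 2311.5 bp downstream, and it was longer on the downstream side for 128 of 186 genes (68.8%). Where a gene had several starts in the region, the most upstream was taken. This choice lengthens the downstream side, and its part in the difference was not tested. Regions at a gene end had median Ezh2 folds of 9.86 and 7.43, against 6.27 and 4.94 inside genes and 5.71 and 5.35 between genes. Runx1 was present in both replicates in 112 regions at a gene end (41.6%), in 20 inside genes (23.5%) and in 11 between genes (13.4%).

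The promoters in the wide regions were rich in CG. Of the 217 annotated promoters with their start in a wide region, from 186 genes, 165 were CpG-rich (76.0%, 95% Wilson interval 69.9 to 81.2%), against 41% of all 21263 promoters and 46.9% of those starting in an Ezh2 region under 3 kb. CpG-rich here means a GC content of at least 55% and an observed-to-expected CpG ratio of at least 0.6 in the 300 bases. Median GC content was 67.7% in wide regions and 56.3% over all promoters, and the median CpG ratio was 0.766 and 0.567. The interval covers counting error only, and promoters of 1 gene overlap.

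**Figure D4:**
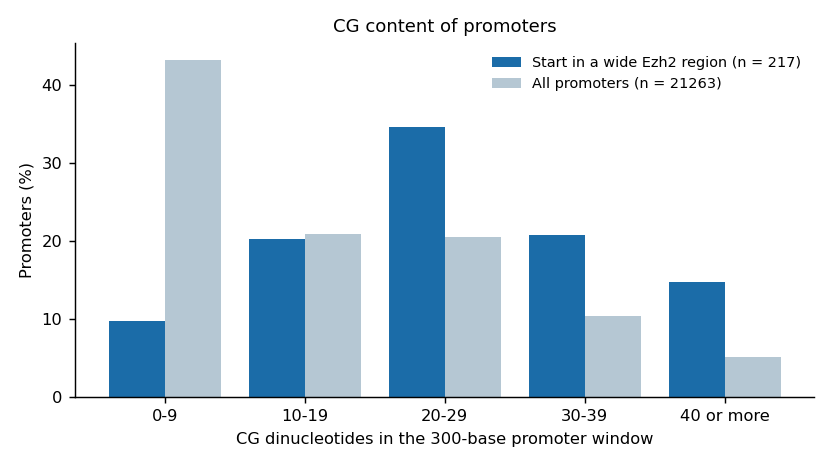
Percentage of promoters (vertical axis) by the number of CG dinucleotides in their 300 bases (horizontal axis), for the 217 promoters with a start in a wide Ezh2 region (dark) and all 21263 promoters (light). Fewer than 10 CG are found in 9.68% of promoters in wide regions and in 43.2% of all promoters, and 40 or more in 14.7% and 5.08%.

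Letters recognised by Runx1 were not more frequent in these promoters. TGTGGT, searched like every motif on both strands and with overlaps between motifs allowed, was in 6.45% of the promoters in wide regions, against 15% of all promoters, and TGCGGT was in 13.4%, against 7.44%. Either was in 41 of the 217 (18.9%), against 21.6% of all. CANNTG, the E-box, was in 63.1% and 69%, and GAGAG, a motif known from Polycomb response elements of Drosophila, was in 72.8% and 62%. The motif with a CG was the more frequent of the Runx1 pair in these CG-rich windows, and the one without was the less frequent. Among promoters in wide regions, either Runx1 motif was in 13 of 66 with Runx1 in the window (19.7%) and in 23 of the 132 with no Runx1 peak there in either replicate (17.4%).

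Runx1 peaks were at fewer of these promoters than of promoters at large. Both replicates had a Runx1 peak in the 300-base window of 66 of the 217 (30.4%), against 40.3% of all promoters. Among CpG-rich promoters alone the count was 59 of 165 in wide regions (35.8%), against 72.0% of all 8710. The share with Runx1 was thus higher in wide Ezh2 regions than over all Ezh2 regions, and lower at their CpG-rich promoters than over all CpG-rich promoters.

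Of 21887 protein-coding genes, 288 had an end inside or within 1 kb of a wide region, which is 1.32%, and 16.8% had an end at any Ezh2 region. Gene lists of known pathways and lineages are described next by how many of their members these regions reached, with no test of any list.

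Hox genes, the homeobox factors that set position along the body axis, were reached most of the 14 lists. An end of 13 of 39 Hox genes (33.3%) lay at a wide region, against 1.32% of all protein-coding genes, and 32 of 39 lay at any Ezh2 region. The 13 were Hoxc4, Hoxc5, Hoxc6, Hoxc8, Hoxc9, Hoxc10, Hoxc11, Hoxc12, Hoxc13, Hoxb6, Hoxb8, Hoxb9 and Hoxd12. No HoxA gene was among them. The longest of all wide regions, at chr15:102974632-103005249, ran over Hoxc9 and Hoxc8 into Hoxc6, with Ezh2 folds of 13.6 and 12.1, H3K27me3 folds of 3.43 and 2.78 and the mark over 100% of it in both replicates. No Runx1 peak touched it. Of the wide regions at an end of a Hox gene, 1 had Runx1 in both replicates, the one shared by Hoxc4 and Hoxc5, with folds of 3.24 and 4.70. A 5899 bp region inside Hoxb3, away from its ends, had Runx1 at 11.4 and 13.1.

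**Figure D5:**
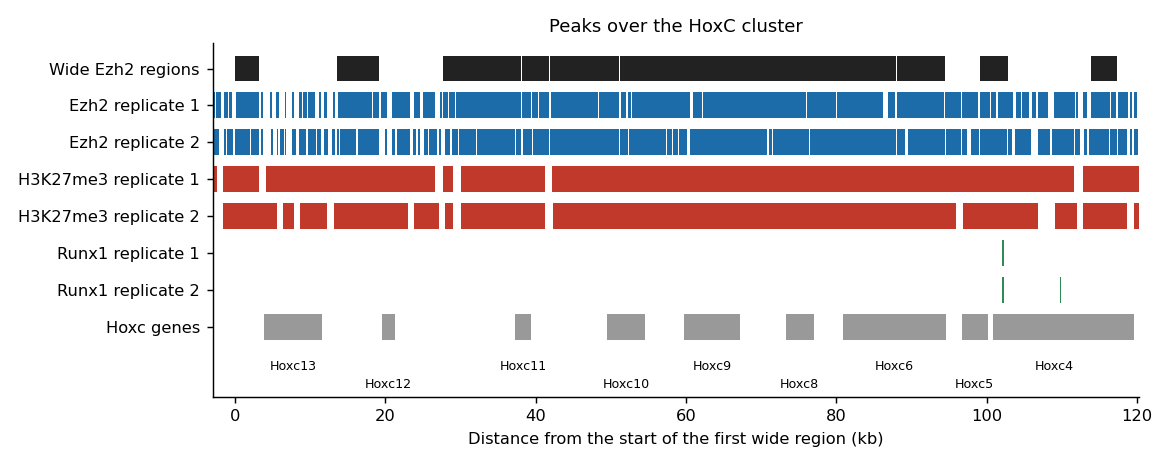
Peaks over the HoxC cluster, by distance in kb from the start of the first wide region. Black bars are the wide Ezh2 regions, blue, red and green bars the peaks of Ezh2, H3K27me3 and Runx1 in each replicate, and grey bars the Hoxc genes. The 10 wide regions fill 69.8% of the 117352 bp between the first and the last, and Runx1 has 1 peak in replicate 1 and 2 in replicate 2.

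Some wide regions lay close together, at many places in the genome, and the largest group was over HoxC. Joining wide regions less than 50 kb apart gave 43 groups with 124 of the 436 regions (28.4%), and 312 regions stood alone. Replicate 1 alone gave 25 such groups and replicate 2 alone gave 17. The group over HoxC, at chr15:102917283-103034634, had 10 wide regions, and Ezh2 peaks covered 85.0% and 85.7% of its 117352 bp. H3K27me3 covered 95.4% and 91.2% of it. The HoxB group held 6 wide regions in 61461 bp from Hoxb9 to Hoxb3, with Ezh2 over 89.2% and 85.4% and the mark over 100% and 97.3%. Next to HoxC, around Smug1, a uracil-DNA glycosylase gene, 6 wide regions lay in 79471 bp, with 4 Runx1 peaks in each replicate. On chromosome 11, 7 lay in 112087 bp over Pdk2, Itga3, Dlx3 and Dlx4, where Ezh2 covered 51.9% and 44.9%. Near Jaml, Scn2b and Scn4b, 4 lay in 62100 bp with no Runx1 peak in either replicate. Ezh2 covered 63.7% and 62.1% of the Smug1 group and 64.0% and 56.9% of the Jaml group, so of these 5 largest groups the Hox groups were covered most. Small groups reached more, such as the pair at Alx4, named after its values were seen, with 96.4% and 93.1% of 6500 bp.

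Transcription factors of other tissues had a wide region at an end less often than Hox genes. Of 105 listed, 5 did (4.76%), against 1.32% of all protein-coding genes. They were Cdx2 of the gut, Pax8 of thyroid and kidney, Hand1 of the heart, and Dlx4 and Dlx3 of skin and face. Some Ezh2 region lay at 50 of the 105 (47.6%), against 16.8% of all protein-coding genes. The 5323 bp region of Cdx2 had Ezh2 folds of 6.11 and 5.07, and the 4128 bp region of Pax8 had 6.04 and 4.94. Runx1 was in both replicates in 1 of 3 wide regions at Dlx4, 3142 bp wide, with folds of 4.09 and 2.54, and in none at the other 4 genes. By the rule of width, 3 more such genes were named: a 10415 bp region in Lmx1b, a limb and brain factor, with Ezh2 folds of 6.04 and 6.81, an 8506 bp region in Atoh8, with 7.89 and 5.56, and an 8149 bp region near Vax2, an eye factor, with 6.11 and 8.09. None of these 3 regions had a Runx1 peak in either replicate. All 3 were below the median Ezh2 fold of the wide set in replicate 1, 8.21. In replicate 2, where that median was 6.30, those in Lmx1b and near Vax2 were above it and that in Atoh8 was below. Another wide region at Vax2, 7982 bp wide, had Runx1 in both replicates, with folds of 7.85 and 10.2.

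Secreted signals of development had 5 of 52 genes at wide regions (9.62%), against 1.32% of all protein-coding genes. None had Runx1 in both replicates, against 41.6% of all wide regions at a gene end, a count too small to read as a difference. The Wnt ligand Wnt11 had a 6297 bp region with Ezh2 folds of 13.7 and 13.9 and H3K27me3 folds of 3.41 and 2.90. Fgf9, a fibroblast growth factor, had 4940 bp with Ezh2 at 12.9 and 10.8, and Wnt3 and Wnt9b shared 4893 bp with Ezh2 at 9.44 and 6.67. Gdf6, a bone morphogenetic ligand, had 4541 bp with Ezh2 at 3.84 and 3.49. The Wnt11 and Fgf9 values were above the medians of the wide set in both replicates, and those of Gdf6 were below.

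Axon guidance genes had 8 of 68 members at wide regions (11.8%), against 1.32% of all protein-coding genes. Of the 8, 6 had Runx1 in both replicates, against 41.6% of all wide regions at a gene end. These were Efna3, an ephrin ligand, Nrp2 and Nrp1, the neuropilin co-receptors, Ephb4, an ephrin receptor, and the semaphorins Sema3f and Sema6b. Efna3 had 6778 bp with Ezh2 folds of 19.3 and 12.5, H3K27me3 folds of 5.10 and 3.43 and Runx1 folds of 8.90 and 8.73. Sema3f had Runx1 folds of 83.8 and 72.6 over Ezh2 folds of 12.6 and 8.57. The guidance receptor Robo3 had Runx1 in replicate 2 only, and Efna1 in neither. No test was made of this count.

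Blood genes were reached in small numbers, at shares of 0 to 6.45% of a list, against 1.32% of all protein-coding genes. Some Ezh2 region of any width lay at 35% of T lymphoid, 51.6% of B lymphoid, 23.5% of myeloid and 24.4% of stem and progenitor genes. The share over all protein-coding genes was 16.8%. Of 40 T lymphoid genes 2 had an end at a wide region (5%), Hes1, a target of Notch, and Lef1, a partner of beta-catenin, and each held Runx1 in both replicates. Hes1 lay between 2 wide regions, a 3617 bp one with Ezh2 folds of 9.04 and 8.25 and Runx1 folds of 5.63 and 6.24, and a 3212 bp one with Ezh2 folds of 11.4 and 8.70 and Runx1 folds of 25.3 and 25.3. Lef1 had Ezh2 folds of 7.52 and 4.28 and Runx1 folds of 4.52 and 5.24. Of 31 B lymphoid genes 2 were reached (6.45%), Irf8 and Bach2. Irf8, a factor of B and myeloid cells, had 5814 bp with Ezh2 at 10.7 and 9.11 and no Runx1. Bach2, a repressor of B and T cells, had Ezh2 at 14.1 and 9.53 and Runx1 at 9.42 and 7.26. Runx1 was thus present in both replicates at 3 of these 4 genes, against 41.6% of all wide regions at a gene end. So small a count is not read as a difference.

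Of 34 myeloid genes 2 were reached (5.88%), Irf8 and Klf4, a zinc finger factor of monocytes, whose 3626 bp region had Ezh2 folds of 7.89 and 6.32 and Runx1 folds of 31.7 and 25.2. Of 41 stem and progenitor regulators 2 were reached (4.88%), Bcl11a with Ezh2 at 7.99 and 4.66 and Mycn with 6.85 and 7.29, neither with Runx1 in both replicates. No wide region lay at any of 29 erythroid and megakaryocytic genes, 22 mast cell genes or 59 cytosolic ribosomal protein genes. Over all protein-coding genes the share was 1.32%, so finding none in lists of this size is not read as a difference. Some Ezh2 region lay at 5 of the 29 (17.2%), 4 of the 22 (18.2%) and 0 of the 59, against 16.8% of all protein-coding genes.

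Among the remaining lists, 2 of 42 Polycomb group genes were reached (4.76%), against 1.32% of all protein-coding genes. They were L3mbtl3 and Phf19, an accessory subunit of Polycomb repressive complex 2. Phf19 had 3766 bp with Ezh2 folds of 7.41 and 6.34. Of 28 cell cycle inhibitors and tumour suppressors 1 was reached, Hic1, and of 38 neuronal genes 1, the vesicular glutamate transporter Slc17a7. In all, 42 of the 617 matched genes of the 14 lists had an end at a wide region, and replicate 1 alone gave 24 and replicate 2 alone gave 27. The cell cycle list does not hold Ccnd2, the D-type cyclin, which had one of the 10 widest regions, at chr6:127147912-127156361. It was 8450 bp wide with Ezh2 folds of 17.2 and 11.7, H3K27me3 folds of 3.53 and 2.84 and Runx1 folds of 22.4 and 20.1, and it held 4 Runx1 peaks in replicate 1 and 5 in replicate 2. Ccnd2 and Smug1, whose 8328 bp region had Runx1 folds of 4.31 and 4.15, were the only members of the 10 widest with Runx1 in both replicates.

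The wide regions were unevenly spread over chromosomes. Chromosome 11 held 62 of the 436 (14.2%), against 9.09% of all Ezh2 regions, and chromosome 15, with HoxC, held 34 (7.80%), against 4.02%. Chromosome 12 held 7 (1.61%), against 3.72%. The X chromosome held 2, at the creatine transporter gene Slc6a8 and at Cited1, out of 109 Ezh2 regions there. Their Ezh2 folds were 14.1 and 11.3 at Slc6a8 and 18.2 and 12.6 at Cited1.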

How the data were processed

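Per the submitters' processing notes, the authors used Bowtie2 2.2.1, Picard, SAMtools and MACS2 2.0.10 with genome build mm10. The authors deposited a narrow peak list for each Ezh2 and Runx1 library and a broad peak list for each H3K27me3 library. Each deposited peak has a score, a fold enrichment over input (a ratio), a −log10 p-value and a −log10 q-value, and narrow peaks also have a deposited summit offset. The score was not used. The weakest deposited p-values were 0.0493 to 0.0499, so the lists are permissive: 20.2% and 14.1% of Ezh2 peaks, 6.13% and 1.34% of H3K27me3 peaks and 60.0% and 69.3% of Runx1 peaks had a q-value of at most 0.01. Peaks were called per library. The lists give no read totals, so the depth is unknown, and the input libraries were not analysed here.

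Intervals were merged and intersected with Python 3.11.15, numpy 2.4.6 and pandas 2.3.3, where 1 bp of overlap counted as touching, and correlations used scipy 1.17.1. The interval code was checked on simulated intervals. Genes, promoters and microRNAs came from RefSeq tables of GRCm38.p6, whose chromosome coordinates are those of mm10. The promoter table covers 17492 of 21887 protein-coding genes (79.9%) and none on chromosome 18. The regions and the 14 gene lists were chosen with earlier results of these data known, and of 620 listed genes 617 matched the annotation. Regions named in the text were the 10 widest, the 5 with the highest mean fold for each antibody, the 3 on either side of the threshold, those without the mark in both replicates and the 5 largest groups. Up to 4 genes of each list were named by width of their region, and others only to complete a count or where said. One region chosen by this rule is not reported here.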

Additional observations from a re-analysis of the deposited data

How the results depend on the processing

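Each value was recomputed with 1 choice changed at a time, in 63 combinations, of which 30 stayed within the spread or interval of the value given above, or for counts within 1.5 times, and 33 did not. No paired analysis was possible because no test was run and the replicate numbers join lists by number only. The number of wide regions, 436, was 389 with Ezh2 peaks of q at most 0.01, 297 where 3000 bp had to be covered in each replicate, and 205 to 256 from 1 Ezh2 replicate.

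The share with H3K27me3 in both replicates, 99.8%, was 99.6% at a width of 2000 bp, 98.6% at 5000 bp, 97.9% where at least 50% had to be covered, 96.8% at the midpoint, 51.8% with mark peaks of q at most 0.01, and 99.5 to 100% without 1 replicate. The mean of the replicates' median cover by the mark, 98.7%, was 73.3% with peaks of q at most 0.01, where many mark peaks are left out. The share with Runx1 in both replicates, 32.8%, was 26.4% at 2000 bp, 30.1% at 5000 bp, 35.2% with Ezh2 peaks of q at most 0.01, 36.0% with 3000 bp covered in each replicate, 32.3% with summits inside, 27.8% and 23.4% with Runx1 peaks of q at most 0.01 and 1e-05, against 2.18% and 1.78% of all Ezh2 regions, and 37.6 to 40% without 1 replicate.

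The share at a gene end, 61.7%, was 47.9% at 2000 bp, 54.8% at 5000 bp, 55.5% with the end inside, 75.2% with the end within 5 kb and 64.1 to 67.3% without 1 Ezh2 replicate. CpG-rich promoters, 76.0%, were 69.0% at 2000 bp and 67.9% at 5000 bp. Groups of neighbours, 43, were 27 at a distance of 10 kb and 17 to 25 from 1 Ezh2 replicate, and listed genes, 42, were 24 to 27. Beyond these the cause of the changes was not tested. The depth of the libraries is unknown, and 1.34% of the peaks of H3K27me3 replicate 2 had a q-value of at most 0.01, which bounds each count that asks for such peaks in both replicates.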
